A study of Mus musculus with 12 samples.

Results

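The H3K4me3 regions described here were 1857 stretches of the mouse genome that lay within 1 kb of an end of at least 2 protein-coding genes. They were chosen by the position of merged peaks. Peaks of 6 H3K4me3 libraries on chromosomes 1 to 19 and X were merged where they overlapped. Each of the 24594 merged regions was set against the gene ends of the RefSeq table for GRCm38.p6, the assembly behind mm10. Distance was taken from the edges of a merged region, so the length of its peaks had a part in the choice. The shared regions made up 7.55% of all merged regions and touched 3532 genes. A further 9377 regions lay at 1 gene only and 13360 lay near no protein-coding gene end. Of the shared regions, 1800 had 2 genes, 55 had 3 genes and 2 had more, namely the stretch with Tomm6, Gm20517, Usp49, Frs3 and Prickle4 and the one with Eme2, Mrps34, Nme3 and Mapk8ip3.

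The cells were PyMT-derived mammary tumour organoids, called tumoroids or spheroids in the labels, all of genotype WT and all taken 3 days after treatment. PyMT is the polyoma middle T oncogene, and mammary tumours driven by it are a standard mouse model of breast cancer. The promoter that drove it and whether the organoids came from 1 tumour are not given in the sources used here. The groups were THC-treated, SR2-treated and control-treated (Ctrl) organoids, with 2 replicates each for H3K4me3 and 2 each for H3K27me3. The sources used here do not spell out SR2 or THC. The series title names the cannabinoid receptor CB2R, encoded by Cnr2, so the comparisons of THC and of SR2 with Ctrl ask how the marks stand after its modulation. CUT&Tag marks chromatin by cutting it with an antibody-directed transposase, and the authors deposited a list of peaks for each library. A region's covered length, in bp, is how much of it the peaks of 1 library covered.

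H3K4me3 sits on the nucleosomes around active gene starts. In mammals many neighbouring genes are transcribed away from each other from starts lying close together, and such a bidirectional promoter carries 1 nucleosome-depleted gap with marked nucleosomes on both sides. Bidirectional promoters are usually rich in CpG, poor in TATA boxes and frequent among genes for DNA repair, mitochondria and basic metabolism. H3K27me3 is the mark of Polycomb repression and normally lies on silent genes.

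The promoters below show the arrangement in sequence. Each is 300 bases on the plus strand of GRCm38.p6 from the RefSeq promoter table, 250 before and 50 after the start of the named plus-strand gene, whose first base is position 251. Capitals mark the letters of 4 motifs on either strand: TATAAA (the TATA box), CCGGAAG (an ETS-factor motif), CCAAT (the NF-Y box) and GCGCATG (the core of the NRF1 motif). None of these strings contains another. The first pair have starts on adjacent bases, with the minus-strand gene beginning at position 250.
St7l, beside Capza1, chr3:104864256-104864555: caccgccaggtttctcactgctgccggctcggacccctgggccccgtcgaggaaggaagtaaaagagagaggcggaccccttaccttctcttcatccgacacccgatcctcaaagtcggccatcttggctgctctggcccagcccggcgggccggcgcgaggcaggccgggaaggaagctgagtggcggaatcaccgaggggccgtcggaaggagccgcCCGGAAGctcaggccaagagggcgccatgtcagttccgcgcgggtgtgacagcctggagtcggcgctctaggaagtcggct
Rhoa, beside Tcta, chr9:108305910-108306209: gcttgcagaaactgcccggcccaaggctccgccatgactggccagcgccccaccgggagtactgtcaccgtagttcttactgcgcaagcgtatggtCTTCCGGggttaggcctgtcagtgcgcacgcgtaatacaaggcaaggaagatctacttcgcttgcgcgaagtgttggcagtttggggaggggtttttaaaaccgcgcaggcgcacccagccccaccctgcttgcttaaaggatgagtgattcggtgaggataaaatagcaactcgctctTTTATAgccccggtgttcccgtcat
The Npat window shows a classical shared promoter of the DNA damage kinase gene Atm, whose start in the gene table falls at position 32, and of Npat, which activates histone genes at the start of S phase. The promoter table places the Npat start 158 bases downstream of the gene's first base in the gene table.
Npat, beside Atm, chr9:53536797-53537096: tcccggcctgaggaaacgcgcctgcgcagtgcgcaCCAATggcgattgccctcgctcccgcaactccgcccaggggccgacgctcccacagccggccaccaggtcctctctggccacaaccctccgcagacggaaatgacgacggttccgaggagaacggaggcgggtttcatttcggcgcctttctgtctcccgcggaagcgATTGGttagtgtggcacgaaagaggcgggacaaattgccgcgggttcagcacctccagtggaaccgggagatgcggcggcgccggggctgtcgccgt
Rpl12 and Fndc11 are shown because their shared regions were among those with the smallest p for THC against Ctrl. The Lrsam1 start lies at position 193 of the Rpl12 window, and the Srms start lies beyond the Fndc11 window.
Rpl12, beside Lrsam1, chr2:32961462-32961761: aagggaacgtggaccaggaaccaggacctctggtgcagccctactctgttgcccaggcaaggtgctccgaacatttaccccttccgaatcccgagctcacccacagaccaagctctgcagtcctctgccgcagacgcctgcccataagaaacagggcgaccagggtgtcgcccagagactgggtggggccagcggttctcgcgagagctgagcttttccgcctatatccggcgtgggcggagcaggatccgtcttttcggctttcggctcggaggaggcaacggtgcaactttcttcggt
Fndc11, beside Srms, chr2:181212342-181212641: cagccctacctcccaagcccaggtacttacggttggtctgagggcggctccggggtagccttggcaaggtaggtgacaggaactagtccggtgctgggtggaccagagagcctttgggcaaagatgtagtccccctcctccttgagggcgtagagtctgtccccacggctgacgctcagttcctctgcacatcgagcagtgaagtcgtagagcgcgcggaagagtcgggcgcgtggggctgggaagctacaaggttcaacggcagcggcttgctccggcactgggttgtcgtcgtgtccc
Fuca1 is shown because its region is the 1 beside Cnr2.
Fuca1, just past the end of Cnr2, chr4:135920476-135920775: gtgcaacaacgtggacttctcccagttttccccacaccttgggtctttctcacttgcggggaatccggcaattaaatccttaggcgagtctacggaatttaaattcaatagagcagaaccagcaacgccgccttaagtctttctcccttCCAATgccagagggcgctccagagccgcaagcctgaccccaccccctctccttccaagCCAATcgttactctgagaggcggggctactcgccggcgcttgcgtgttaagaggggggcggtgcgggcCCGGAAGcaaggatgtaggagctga
The St7l window held 1 ETS match at position 220 and the Rhoa window 1 ETS match at position 97 and TATAAA at position 276. The Npat window held CCAAT at positions 36 and 204, and the Fuca1 window held CCAAT at positions 150 and 208 and an ETS match at position 276. The Rpl12 and Fndc11 windows held none of the 4 strings. A match is a string of letters and says nothing of binding.

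Strand was known for 17273 of 21627 protein-coding genes, and it sorted the shared regions by the role of each gene end. At 907 of them (48.8% of 1857) 2 genes began head to head on opposite strands. At 390 a gene start lay beside the 3′ end of another gene, at 42 only 3′ ends were near, at 35 genes began on the same strand, and at 483 the strand of a gene was not known. Of the one-gene regions, 7094 lay at a start and 315 at a 3′ end. Across the genes that begin head to head, the promoter windows had a median CpG ratio (observed over expected) of 0.836, against 0.733 for genes whose start lay beside a 3′ end, 0.769 for genes at one-gene regions and 0.586 for all 17273 genes with a window. TATAAA was found in 4.83% of the head-to-head promoters, against 6.94% of one-gene promoters and 13.4% of all genes' promoters. The ETS string was found in 26.4% of head-to-head promoters and 24.9% of promoters beside a 3′ end, against 16.3% of one-gene promoters and 12.1% of all genes' promoters. CCAAT was found in 40.4% of head-to-head promoters and 38.6% of one-gene promoters, and the NRF1 string in 8.05% and 7.27% of them. Over all 32851 windows of the promoter table, which include other gene types, the shares were 13.6% for TATAAA, 8.86% for the ETS string, 37.4% for CCAAT and 3.91% for the NRF1 string. These shares are descriptions with no test.

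Depth and tissue were checked before the values were compared. The H3K4me3 lists held 11924 and 13227 peaks in THC, 14812 and 15189 in SR2 and 18383 and 16442 in Ctrl. The lowest background pileup of fragments, recovered from the authors' fold enrichments and p-values, was 0.752 and 1.52 in THC, 1.16 and 1.10 in SR2 and 1.05 and 1.02 in Ctrl, so THC replicate 1 was the shallowest library and THC replicate 2 the deepest. Of 10 genes of mammary epithelium, 8 to 10 had a region marked in each library, among them Epcam, Cdh1, Krt8 and Elf3. Of 5 basal markers 0 to 3 were marked, and Acta2 and Trp63 in none. Of 6 blood genes and of 4 endothelial genes 0 or 1 were marked in each library, of 5 fibroblast genes 1 (Col1a1, in every library) and of 4 adipocyte genes 0 to 2. Ptprc for blood, Pecam1 for endothelium, Pdgfra for fibroblasts and Adipoq for adipocytes had no peak in any library. The labels give each replicate a batch number but do not say that replicates were separate cultures, so p-values measure only the spread between these libraries.

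In each of the 6 libraries shared regions were more often marked than regions with 1 gene. Where marked, they had the higher median length and the higher median rank by −log10 q. The shared regions had a peak in 89.8% and 93.2% of cases in THC, 93.9% and 95.7% in SR2 and 98.7% and 97.0% in Ctrl, while one-gene regions had one in 75.5% and 83.0%, 85.5% and 89.8%, and 96.0% and 91.5%. In each library the shared regions were marked more often, by 7.83 ± 4.08 percentage points on average (SD, n = 6; mean 94.7% against 86.9%). Their median covered length was 935 and 1126 bp in THC, 1154.5 and 1235 bp in SR2 and 1339 and 1274 bp in Ctrl, against 787 and 971 bp, 996 and 1069 bp, and 1163 and 1101 bp at one-gene regions. The log2 ratio of shared to one-gene medians was 0.22 ± 0.016 (SD, n = 6), positive in 6 of 6 libraries. The median rank of their peaks by −log10 q within each library's own list was at percentile 74.7 against percentile 60.1, a difference of 14.6 ± 1.35 (SD, n = 6). Each of these differences had an exact two-sided sign-flip p of 0.03125, the smallest that 6 libraries allow, and 0.0521 after Benjamini-Hochberg adjustment over 5 measures, which misses 0.05. The share of marked regions split into 2 or more peaks was 1.95% at shared and 2.09% at one-gene regions (exact sign-flip p = 0.281). Median fold enrichment, not tested, was 7.27 and 8.34 at shared regions in THC, 8.25 and 9.17 in SR2 and 9.52 and 9.57 in Ctrl. At one-gene regions it was 6.87 and 7.78, 7.88 and 8.78, and 9.46 and 9.42, so it differed little in Ctrl.

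A long region reaches more gene ends, so breadth and membership are linked by the rule. When only the midpoint of a region had to lie within 1 kb of the gene ends, 1505 regions were shared and the log2 ratio of medians was 0.24. The second gene end overlapped the region itself in 1206 of the 1857 shared regions, lay 1 to 800 bp away in 546 and 801 to 1000 bp away in 105. Just outside the rule, 123 one-gene regions had a second gene end 1001 to 1200 bp away. The members just inside had median covered lengths of 745 and 967 bp in THC, 1020 and 1051 bp in SR2 and 1104.5 and 1052 bp in Ctrl. Those just outside had 698 and 878 bp, 882.5 and 918 bp, and 1030.5 and 1020.5 bp. The members whose second gene end lay inside the region were broader than both in each library, with 1008.5 and 1218 bp in THC, 1248 and 1331.5 bp in SR2 and 1447 and 1377 bp in Ctrl. Members with it 1 to 800 bp away had 740 and 916 bp, 938.5 and 1025 bp, and 1110 and 1041.5 bp. These medians lay below those of one-gene regions in each library, and 76.0% of these members were marked in all 6 libraries, against 73.8% of one-gene regions. Only members whose second gene end lay inside the region had medians above those of one-gene regions in every library. A longer region holds a gene end more easily, so this split cannot separate breadth from membership.

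The difference was larger at head-to-head regions. They had a peak in 96.0% to 99.9% of cases in each of the 6 libraries, and 869 of 907 (95.8%) were marked in all 6. One-gene starts had a peak in 79.0% to 97.3% of cases, and 77.6% were marked in all 6. The median covered length was 1022 and 1223 bp in THC, 1247 and 1332 bp in SR2 and 1442.5 and 1377.5 bp in Ctrl at head-to-head regions, against 792 and 973 bp, 999 and 1078 bp, and 1177.5 and 1111 bp at one-gene starts. Head-to-head regions were thus wider in every library, with a log2 ratio of 0.32 ± 0.026 (SD, n = 6; exact sign-flip p = 0.03125, adjusted 0.0521). Where a start lay beside another gene's 3′ end, the log2 ratio to one-gene starts was −0.02 ± 0.036 (SD, n = 6; exact sign-flip p = 0.188, positive in 2 of 6 libraries). Those start-and-end regions were nevertheless marked more often than one-gene starts, 93.5% against 89.6% on average (difference 3.87 ± 2.33 percentage points, SD, n = 6; exact sign-flip p = 0.03125, adjusted 0.0781). Regions near 3′ ends only were marked in 16.7% and 28.6% of cases in THC, 38.1% and 42.9% in SR2 and 90.5% and 57.1% in Ctrl, and 6 of 42 were marked in all 6 libraries.

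**Figure D1:**
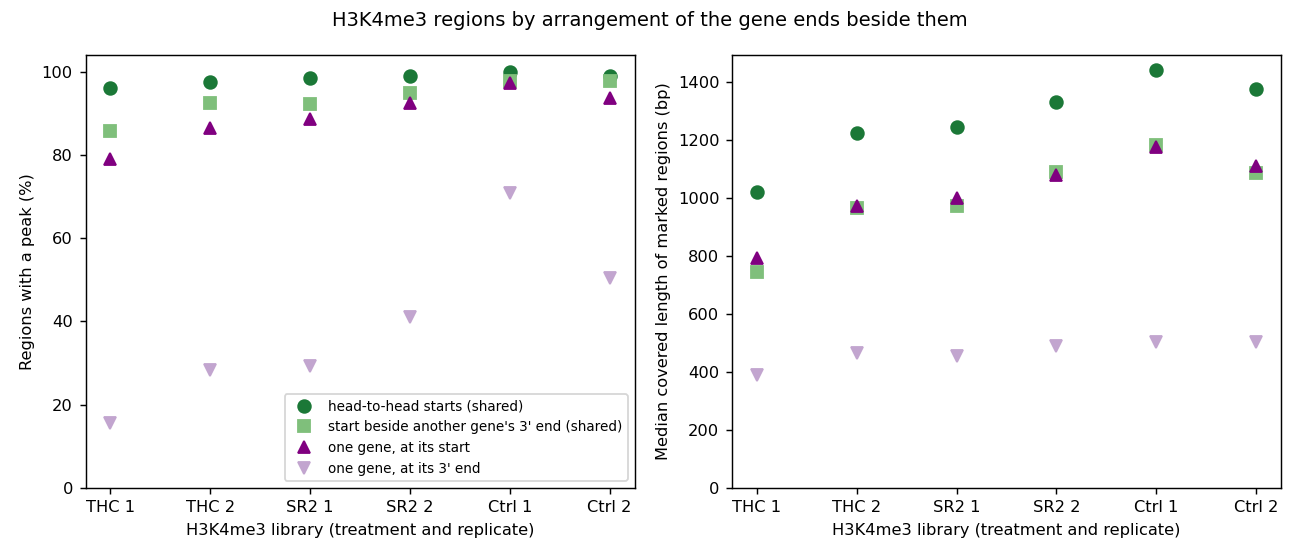
Share of regions with a peak (left, %) and median covered length of the marked regions (right, bp) in each of the 6 H3K4me3 libraries, with 1 point per class of region. Head-to-head regions lie above one-gene starts in every library on both axes, while starts beside another gene's 3′ end have nearly the lengths of one-gene starts.

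Breadth also varied with how far apart the opposed starts lay. Among the 881 head-to-head regions with exactly 2 genes, 331 (37.6%) had genes whose 5′ ends overlapped. In the other 550 the starts were a median of 101 bp apart (quartiles 47.25 and 236.25), and 391 of them lay within 200 bp. Regions whose starts lay 201 to 400 bp apart (n = 102) had medians of 1103 and 1289 bp in THC, 1331 and 1459 bp in SR2 and 1604.5 and 1496 bp in Ctrl. Those with starts 0 to 100 bp apart (n = 274) had 984 and 1145 bp, 1208.5 and 1274 bp, and 1403 and 1312 bp. The regions with the wider spacing were thus the longer in all 6 libraries. With starts over 1000 bp apart (n = 17), the medians were below both, at 635 and 881 bp, 1017 and 1030 bp, and 1090 and 1059 bp. Regions with overlapping 5′ ends had 1021 and 1222 bp, 1223 and 1327 bp, and 1415 and 1370 bp, more than at 0 to 100 bp in each library. Adjacent starts did not always go with short regions. At Capza1/St7l, the actin-capping gene and its neighbour, the peaks covered 1667 and 1685 bp in THC, 1742 and 1743 bp in SR2 and 1975 and 1901 bp in Ctrl. At Tcta/Rhoa, which holds the start of the cytoskeletal GTPase gene Rhoa, they covered 1445 and 1523 bp, 1535 and 1636 bp, and 1692 and 1689 bp. At Smpd2/Ppil6, also with adjacent starts, they covered 870 and 1242 bp, 1381 and 1494 bp, and 1463 and 1406 bp. There THC replicate 1 fell below the median of regions with starts 0 to 100 bp apart.

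**Figure D2:**
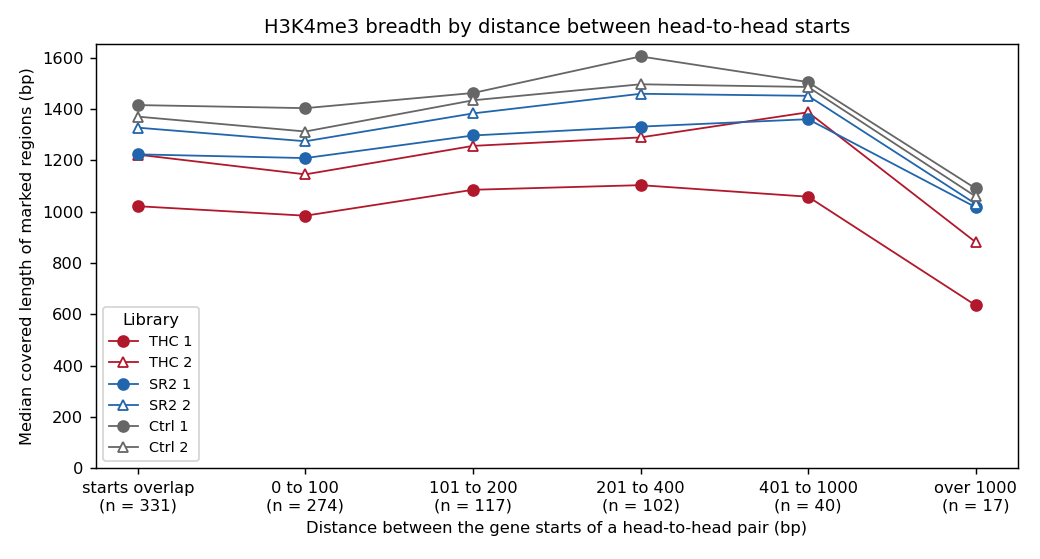
Median covered length (bp) of head-to-head regions with 2 genes, by the distance between the gene starts (bp), with 1 line per library and the number of regions under each bin. All 6 libraries are longer at 201 to 400 bp than at 0 to 100 bp and shortest over 1000 bp, a bin of 17 regions.

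At head-to-head pairs the median reach of the mark was similar for minus-strand and for plus-strand genes in each library. Among pairs whose starts did not overlap, the peak covered both starts in 454 of 536 marked pairs (84.7%) in THC replicate 1, in 479 of 540 (88.7%) in THC replicate 2 and in 87.9% to 89.6% of pairs in the other 4 libraries. From the start it reached a median of 455.5 and 522 bp into the minus-strand gene in THC, 553 and 594 bp in SR2 and 633 and 611.5 bp in Ctrl. Into the plus-strand gene it reached 453.5 and 539 bp, 563 and 609 bp, and 665.5 and 640.5 bp. Which gene of a pair lies on which strand is arbitrary, so these medians cannot show whether single pairs were even or lopsided. The difference within pairs was not tested. The values at one-gene starts are on another axis, into the gene and upstream, and are no direct comparison. At one-gene starts covered by a peak the mark was lopsided, reaching 615 and 723.5 bp into the gene in THC, 753 and 797 bp in SR2 and 866 and 825 bp in Ctrl, and 198 and 246 bp, 251 and 273 bp, and 299 and 278 bp upstream. The highest point of the peak lay inside one of the genes in 79.3% to 83.1% of marked pairs, and between the starts in the rest. Of 536 pairs marked in every library, 285 (53.2%) had it at the same place (1 gene, the other, or between) in all 6 libraries. Replicates had it at the same place in 69.6% of these pairs in THC, 78.5% in SR2 and 80.6% in Ctrl. In 277 pairs both THC summits lay in 1 gene and both Ctrl summits in 1 gene, and the gene differed in 6 of them. SR2 against Ctrl gave 6 of 312. These measures of edges and summits were chosen after the data were seen and carry no test.

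Among 34 gene pairs listed from textbooks or earlier work, 17 had both genes at 1 region. Several are paired DNA repair genes. At Brca1/Nbr1, the start of the homologous recombination gene Brca1 and of an autophagy receptor gene, the peaks covered 1398 and 1789 bp in THC, 2159 and 1767 bp in SR2 and 1791 and 1797 bp in Ctrl. At Atm/Npat they covered 1360 and 1308 bp, 1316 and 1423 bp, and 1595 and 1542 bp. At Mcm4/Prkdc, a subunit of the replicative helicase and the DNA-dependent protein kinase, they covered 1083 and 1228 bp, 1395 and 1470 bp, and 1589 and 1552 bp. Atm/Npat and Mcm4/Prkdc were shorter in all 4 treated libraries than in both Ctrl libraries, which also held for the median region, and at Brca1/Nbr1 the groups overlapped. The tumour suppressor gene Trp53 and its antisense neighbour Wrap53 had 2 separate regions. The one over both starts, chr11:69580023-69581977, was covered over 986 and 1918 bp in THC, 1845 and 1895 bp in SR2 and 1906 and 1889 bp in Ctrl, so only THC replicate 1 stood apart.

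Paired metabolic and mitochondrial genes shared regions too. At Hspe1/Hspd1, the mitochondrial co-chaperonin and its chaperonin, the peaks covered 1647 and 1781 bp in THC, 1589 and 1817 bp in SR2 and 2041 and 1845 bp in Ctrl. At Paics/Ppat, a pair of enzymes of purine synthesis, they covered 1273 and 1601 bp, 1374 and 1506 bp, and 1672 and 1628 bp. Gart/Son, another purine enzyme and an RNA-splicing factor, had 1993 and 2004 bp, 1994 and 2019 bp, and 2214 and 2207 bp although its starts lay 851 bp apart. All 3 regions were shorter in the 4 treated libraries than in both Ctrl libraries, as the median region also was, and none passed the test described below. After centring, their log2 changes for THC against Ctrl were 0.22, 0.19 and 0.25 in the order given. They thus shortened less in THC than the median region did. Col4a2/Col4a1, the basement membrane collagens, was the uneven member: 744 and 0 bp in THC, 1331 and 336 bp in SR2 and 1470 and 897 bp in Ctrl, with replicates of 1 group differing as much as groups did. Of the other pairs, 15 had each gene at a region of its own, among them Nme1/Nme2 and Krt8/Krt18, and 2 had only 1 gene marked.

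The receptor gene named in the series title entered the list by its 3′ end. Cnr2 and Fuca1, a lysosomal fucosidase gene, lie one after the other on the plus strand, and the region at chr4:135920380-135922090 covers the Fuca1 start and begins 161 bp past the end of Cnr2. Its peaks covered 901 and 1225 bp in THC, 1463 and 1648 bp in SR2 and 1684 and 1591 bp in Ctrl. The THC libraries lay below all the others, while SR2 and Ctrl overlapped. After centring the log2 change was −0.17 ± 0.073 for THC against Ctrl (SE; limma adjusted p = 0.229) and 0.07 ± 0.073 for SR2 against Ctrl (SE; limma adjusted p = 0.944). The region is therefore the promoter of Fuca1 by position and gives no measure of the Cnr2 start.

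Some gene families had many of their marked genes at shared regions. Over all protein-coding genes, 3532 of 12207 marked genes (28.9%) were at a shared region. Of the mitochondrial ribosomal proteins 39 of 76 were (51.3%), 28 of them head to head. Of genes with Nduf symbols, most of them subunits or assembly factors of respiratory complex I, 27 of 46 were (58.7%), 20 of them head to head. At 2 regions both families met. Mrpl47/Ndufb5 had 1001 and 1089 bp in THC, 1149 and 1134 bp in SR2 and 1200 and 1161 bp in Ctrl. Ndufs6/Mrpl36 had 627 and 645 bp, 647 and 739 bp, and 763 and 715 bp. Both were marked in every library, and the treated and Ctrl lengths overlapped only at Ndufs6/Mrpl36, in SR2.

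Other families lay on both sides of the 28.9% of all protein-coding genes. Of the Fanconi and homologous recombination genes 11 of 21 (52.4%) were at a shared region, among them Palb2 with Dctn5, Rad51c with Tex14 and Fancb with Mospd2. Rad51c/Tex14 had 0 and 592 bp in THC, 525 and 728 bp in SR2 and 928 and 856 bp in Ctrl. Subunits of the RNA exosome gave 7 of 10 (70.0%), tRNA synthetases 16 of 35 (45.7%) and RNA polymerase subunits 12 of 29 (41.4%). Genes with Psm symbols, called the proteasome family here, gave 15 of 47 (31.9%) and cytosolic ribosomal proteins 26 of 82 (31.7%). Histone genes, which stand in clusters, gave 37 of 57 (64.9%). At H2ac12/H2bc12 the peaks covered 616 and 912 bp in THC, 1239 and 1361 bp in SR2 and 1380 and 1382 bp in Ctrl, so both treated groups lay below Ctrl without overlap. At H3c3/H2bc3 they covered 395 and 1433 bp, 1599 and 1646 bp, and 1352 and 1751 bp, with THC replicate 1 alone far below. Zinc finger genes gave 50 of 310 (16.1%), collagens 5 of 19 (26.3%), and keratins and protocadherins 0 of 14 each. Histone genes are near-identical copies, so how reads were placed among them is uncertain.

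**Figure D3:**
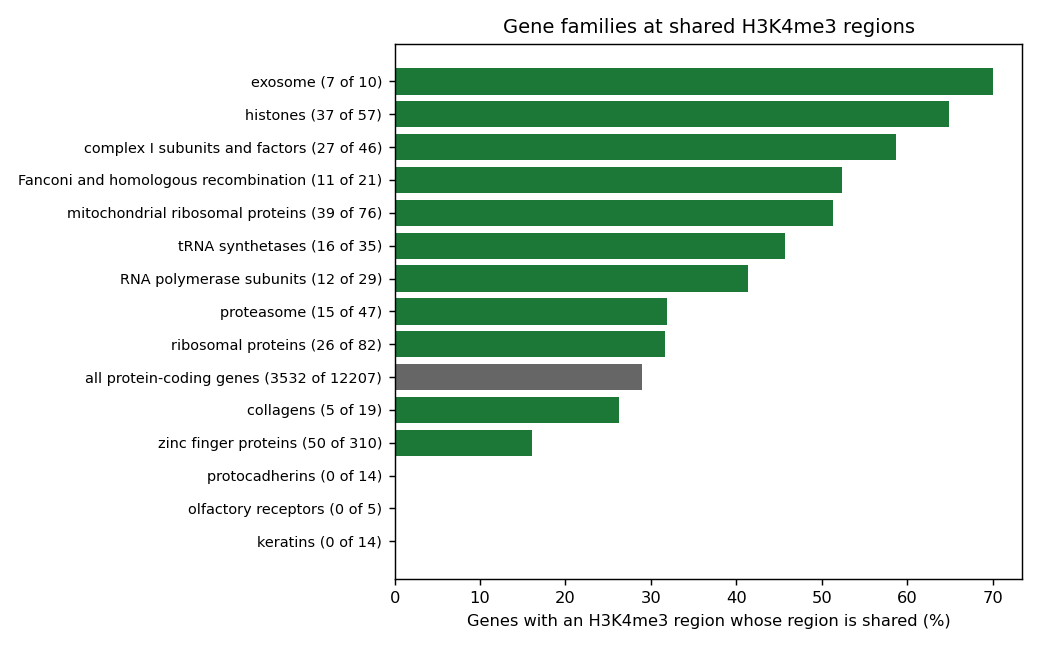
Share of each family's marked genes that lay at a shared region (%), with the number at a shared region and the number marked. Exosome, histone and complex I genes lie farthest above the 28.9% of all protein-coding genes (grey bar), and keratins, protocadherins and olfactory receptors are at 0.

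No shared region passed the test for a change of breadth with either treatment. The test was limma on log2(covered bp + 200), centred on the median of 10140 regions marked in all 6 libraries, over 15771 regions marked in at least 2. Of 1805 shared regions tested, 0 passed an adjusted p of 0.05 in any of the 3 comparisons, and 0.0% of all regions did. The smallest adjusted p at a shared region was 0.128 for THC against Ctrl, 0.122 for SR2 against Ctrl and 0.318 between the treatments. At an unadjusted p of 0.05, 128 shared regions were narrower and 140 wider in THC than in Ctrl, against 18.4% and 4.41% of all regions tested, which for the shared regions is 7.09% and 7.76%. For SR2 against Ctrl 44 were narrower (2.44%) and 7 wider, against 8.91% and 0.653% of all regions. For THC against SR2 66 were narrower (3.66%) and 61 wider (3.38%), against 6.84% and 1.84% of all regions. The wider calls depend on the centring: without it the median region marked in all 6 libraries was lower by a log2 change of −0.38 in THC against Ctrl, −0.14 in SR2 against Ctrl and −0.24 in THC against SR2, and 0, 0 and 1 shared regions were wider and 606, 79 and 230 narrower. These unadjusted counts also moved with single libraries. For THC against Ctrl, leaving out 1 library gave 42 to 260 narrower, with 42 without Ctrl replicate 1, 57 without Ctrl replicate 2 and 260 without THC replicate 2. It gave 8 to 417 wider, with 8 without Ctrl replicate 1, 23 without Ctrl replicate 2, 63 or 64 without THC replicate 1 or either SR2 library and 417 without THC replicate 2. For SR2 against Ctrl it gave 27 narrower without Ctrl replicate 1, 81 without SR2 replicate 2, and 68 and 70 without THC replicates 1 and 2. Wider regions for SR2 against Ctrl numbered 38 and 43 without THC replicates 1 and 2, 13 without SR2 replicate 2 and 3 without SR2 replicate 1. For THC against SR2 it gave 255 narrower and 314 wider without THC replicate 2, and 22 to 57 wider otherwise. The median centred change of the shared regions was 0.04 for THC against Ctrl, 0.03 for SR2 against Ctrl and 0.03 for THC against SR2, against −0.15, −0.03 and −0.03 over all regions tested.

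Which library was left out mattered for the count of calls. Without THC replicate 2, which leaves the shallow THC replicate 1 as the only THC library and assumes that it varies like the others, 211 shared regions passed when THC was set against Ctrl and 103 when it was set against SR2. Without THC replicate 1 none passed. A pseudocount of 50 bp gave 28 shared regions for THC against Ctrl and 18 for SR2 against Ctrl, all narrower, and no centring gave 87 and 17, all narrower. The gap in share marked between shared and one-gene regions was widest in THC, at 14.3 and 10.1 percentage points, with 8.45 and 5.84 points in SR2 and 2.69 and 5.54 points in Ctrl. Neither treatment overlapped Ctrl. The mean difference was 8.11 points for THC against Ctrl and 3.04 points for SR2 against Ctrl (exact permutation p = 0.3333 each, the smallest that 2 libraries against 2 allow). The number of peaks per library moved with it: with the same number of strongest peaks from each library, an alternative chosen after the data were seen, the differences were 2.75 and 0.491 points. Without 1 library they were 6.04 to 10.3 points for THC and 1.71 to 4.54 points for SR2, with 1.71 without SR2 replicate 1, 1.81 without Ctrl replicate 1 and 4.54 without Ctrl replicate 2. As a log2 ratio of medians, the difference in breadth was 0.25 and 0.21 in THC, 0.21 and 0.21 in SR2 and 0.20 and 0.21 in Ctrl. The exact permutation p was 0.3333 for THC against Ctrl and 0.667 for SR2 against Ctrl. The mean difference for THC, 0.024, was 0.0067 without THC replicate 1 and 0.042 without THC replicate 2.

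Rankings of single regions left out the 198 shared regions in which a gene had a clone-style symbol. Among the ranked regions, Kdm6b/Dnah2 was 1 of the 10 broadest in Ctrl. This region holds a gene end of Kdm6b, which encodes a demethylase of H3K27 and whose strand was not known. Its peaks covered 679 and 1297 bp in THC, 1161 and 1828 bp in SR2 and 2672 and 2894 bp in Ctrl. All 4 treated libraries lay below both Ctrl libraries, and the centred log2 change was −0.9997 ± 0.22 for THC (SE; limma adjusted p = 0.128) and −0.70 ± 0.22 for SR2 (SE; limma adjusted p = 0.235). Lrsam1/Rpl12, Exoc3l/E2f4 and Spry4/Arhgap26 were among the 10 ranked shared regions with the smallest p for THC against Ctrl. At Lrsam1/Rpl12, a ubiquitin ligase gene and a ribosomal protein gene, they covered 599 and 1112 bp in THC, 1607 and 1933 bp in SR2 and 2084 and 2016 bp in Ctrl. THC lay apart from the other groups there, with a log2 change of −0.76 ± 0.15 (SE; limma adjusted p = 0.128). Exoc3l/E2f4, beside the cell-cycle factor gene E2f4, had 656 and 899 bp in THC, 1172 and 1495 bp in SR2 and 1876 and 1631 bp in Ctrl. Spry4/Arhgap26, beside the growth factor signalling inhibitor gene Spry4, had 669 and 858 bp, 1418 and 1679 bp, and 1878 and 1624 bp. In both of these the THC libraries were the lowest, and SR2 and Ctrl overlapped at Spry4/Arhgap26 only.

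Septin4/Mtmr4 was lower in SR2 than in THC. This region, at a septin gene and a phosphoinositide phosphatase gene, had 1021 and 1323 bp in THC, 773 and 989 bp in SR2 and 1767 and 1677 bp in Ctrl. No group overlapped another, and the log2 change was −0.70 ± 0.090 for SR2 against Ctrl (SE; limma adjusted p = 0.122), −0.12 ± 0.090 for THC against Ctrl (SE; limma adjusted p = 0.459) and 0.58 ± 0.090 for THC against SR2 (SE; limma adjusted p = 0.318). The widest shared region of all, H2-DMa/Brd2, joins an antigen presentation gene and a bromodomain gene. It had 1437 and 3729 bp in THC, 4036 and 3780 bp in SR2 and 5018 and 4566 bp in Ctrl. Its treated libraries lay below both Ctrl libraries, with THC replicate 1 far below THC replicate 2 (log2 change −0.60 ± 0.35 for THC against Ctrl, SE; limma adjusted p = 0.343). H1f0/Gcat, with the linker histone gene H1f0, had 692 and 1856 bp, 2183 and 2831 bp, and 3278 and 3127 bp, with the groups in that order and no overlap.

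**Figure D4:**
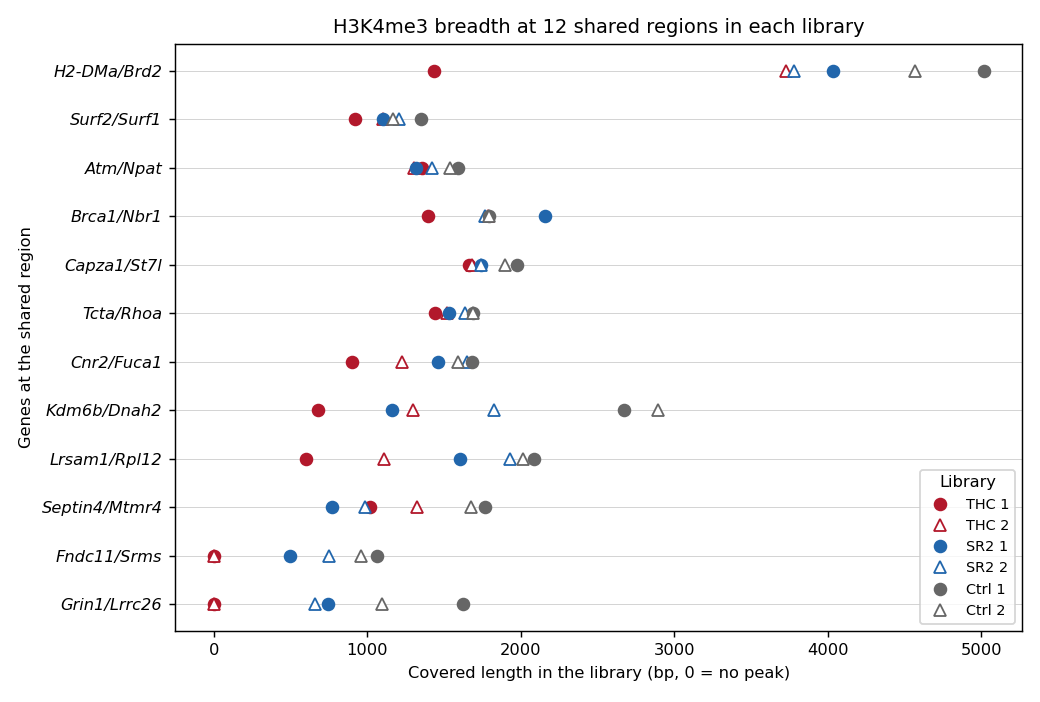
Covered length (bp, 0 where the library had no peak) at 12 shared regions, with 1 symbol per library. The 2 adjacent-start pairs and Atm/Npat lie close together in all libraries, Kdm6b/Dnah2 and Lrsam1/Rpl12 are spread, and Fndc11/Srms and Grin1/Lrrc26 are at 0 in both THC libraries.

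Loss of the whole peak was rare at shared regions. Of 1787 shared regions marked in both Ctrl libraries, 54 (3.02%) had no peak in either THC library and 20 (1.12%) none in either SR2 library. Over all regions marked in both Ctrl libraries the shares were 17.5% for THC and 7.84% for SR2, and over one-gene regions 7.60% and 2.32%. No shared region was marked in both libraries of a treatment and in neither Ctrl library, against 0.108% of all regions for THC and 0.255% for SR2. Between the treatments, 18 of 1731 shared regions marked in both SR2 libraries had no peak in THC (1.04%, against 5.08% of all) and 0 were marked in THC alone (against 0.127% of all). The order of peak numbers was the same, with most in Ctrl and fewest in THC. With the 11924 strongest peaks of each library, 15 shared regions (0.877%) lacked a peak in THC and 5 (0.292%) in SR2, against 3.04% and 1.23% of all regions, and 2 were marked in SR2 and not in Ctrl. Leaving out 1 library asks less of the rest. The count for THC was then 60 to 122, with 122 without THC replicate 2 and 98 without Ctrl replicate 2. For SR2 it was 25 to 52, with 52 without SR2 replicate 2, 52 without Ctrl replicate 2 and 32 without Ctrl replicate 1. For THC against SR2 it was 22 to 69, with 69 without THC replicate 2, 48 without SR2 replicate 1 and 29 without SR2 replicate 2.

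The share without a peak differed with the arrangement of the genes. Of 897 head-to-head regions marked in both Ctrl libraries 11 (1.23%) had no peak in THC and 1 (0.111%) none in SR2. Of 375 regions at a start beside a 3′ end the counts were 15 (4.00%) and 6 (1.60%), and of 22 regions near 3′ ends only 10 (45.5%) and 6 (27.3%). One-gene starts gave 6.41% and 1.72%, and one-gene 3′ ends 41.1% and 20.2%. Peak strength in Ctrl moved with these losses. Among shared regions whose Ctrl peaks ranked on average in the upper 50% of their lists, 99.5% (569 regions, ranks 50 to 75) and 100% (978 regions, ranks 75 to 100) kept a peak in both THC libraries, against 97.6% and 99.97% of one-gene regions. In ranks 25 to 50, 55.8% of 206 shared and 50.2% of 1934 one-gene regions kept it, and in the lowest ranks 0% of 34 shared and 3.09% of 453 one-gene regions did. In all, 86.6% of the shared and 71.7% of the one-gene regions ranked in the upper 50%. The part of peak strength in the lower share of losses was not tested further.

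**Figure D5:**
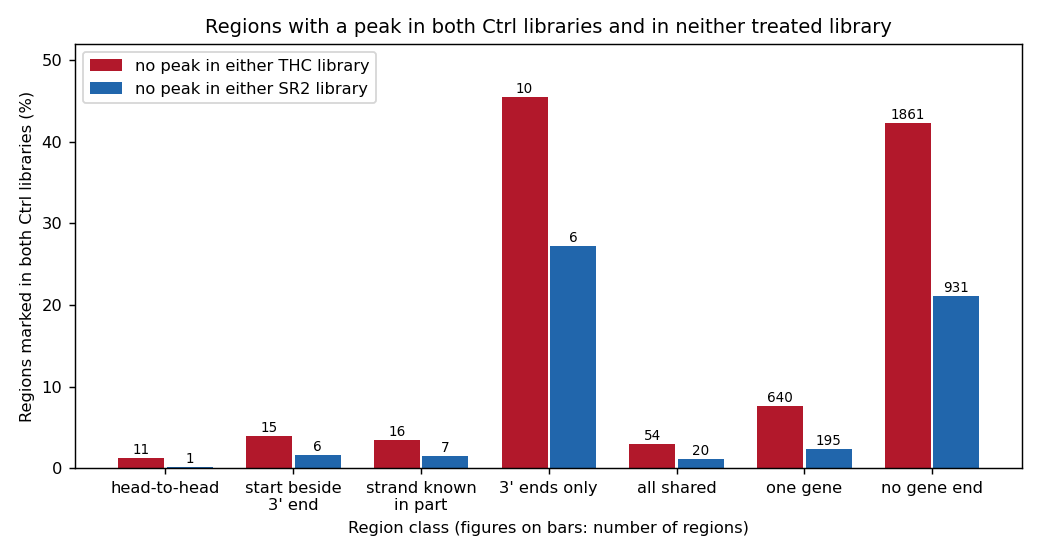
Share of the regions marked in both Ctrl libraries that had no peak in either THC library or in either SR2 library (%), by class of region, with the number of regions on each bar. Head-to-head regions are at 1.23% for THC and 0.111% for SR2, and regions near 3′ ends only at 45.5% and 27.3%.

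The named losses included head-to-head pairs as well as gene ends. At Fndc11/Srms, whose overlapping starts include that of a kinase gene of the Src type, the peaks covered 0 and 0 bp in THC, 496 and 753 bp in SR2 and 1065 and 960 bp in Ctrl. At Ina/Nt5c2, the starts of a neuronal intermediate filament gene and a nucleotidase gene, they covered 0 and 0 bp, 599 and 508 bp, and 849 and 662 bp. Grin1/Lrrc26, where the 3′ ends of a glutamate receptor subunit gene and of a potassium channel subunit gene meet nearby, had 0 and 0 bp, 744 and 658 bp, and 1626 and 1094 bp. In these 3 the groups fell in the order THC, SR2, Ctrl with no overlap, and the log2 changes for THC against Ctrl were −2.22 ± 0.34, −1.87 ± 0.36 and −2.56 ± 0.32 (SE; limma adjusted p = 0.128 each), which rest on the pseudocount since THC was at 0. Other losses were common to both treatments. Ap1b1/Nefh, Dnase1l2/E4f1 and Nicn1/Amt each had 0 bp in all 4 treated libraries. In Ctrl the peaks covered 849 and 892 bp at Ap1b1/Nefh, 793 and 725 bp at Dnase1l2/E4f1 and 1023 and 477 bp at Nicn1/Amt. H2ac4/H3c2 had a region with 0 and 0 bp in THC, 626 and 651 bp in SR2 and 522 and 322 bp in Ctrl. By −log10 q, the Ctrl peaks of all these regions ranked below percentile 50 of their lists. The Ctrl percentiles were 39.7 and 22.3 at Fndc11/Srms, 33.0 and 29.6 at Ina/Nt5c2 and 30.3 and 26.4 at Grin1/Lrrc26. They were 33.1 and 17.3 at Ap1b1/Nefh, 31.5 and 22.3 at Dnase1l2/E4f1, 34.8 and 2.61 at Nicn1/Amt and 40.4 and 30.7 at H2ac4/H3c2.

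H3K27me3 was seldom found on shared regions. Its lists held 983 and 70 peaks in THC, 839 and 157 in SR2 and 2708 and 386 in Ctrl, with most in Ctrl in both replicates. Shared regions overlapped by an H3K27me3 peak numbered 67 and 0 in THC, 74 and 5 in SR2 and 147 and 5 in Ctrl. Replicate 1, which the labels call batch 1, had more than replicate 2 in each group. On average 2.67% of shared and 1.57% of one-gene regions were overlapped, a difference of 1.10 ± 1.35 percentage points (SD, n = 6; exact sign-flip p = 0.219, positive in 4 of 6 libraries). It was 0.701 points without Ctrl replicate 1, 0.661 points within 2 kb of gene ends and 0.294 points where at least 500 bp had to be overlapped. Head-to-head regions were overlapped in 3.64% of cases and one-gene starts in 1.60%. That difference was 2.03 ± 2.46 points (SD, n = 6; exact sign-flip p = 0.0625, adjusted 0.0781, positive in 5 of 6 libraries). It was 2.63 points in THC, 3.33 in SR2 and 6.08 in Ctrl in replicate 1, and −0.056, 0.133 and 0.089 in replicate 2. Among the shared regions without a clone-style gene symbol, only Tmco3/Dcun1d2 had H3K27me3 in 5 libraries. It covered 729 and 0 bp in THC, 382 and 235 bp in SR2 and 259 and 437 bp in Ctrl. H3K4me3 covered 1241 and 1380 bp, 1590 and 1573 bp, and 1583 and 1533 bp there. Smc6/Gen1, a head-to-head pair of genome maintenance genes, had H3K27me3 in replicate 1 of each group only, over 332 bp in THC, 447 bp in SR2 and 251 bp in Ctrl. The H3K4me3 peaks ranked high by −log10 q, at percentiles 92.7 to 98.4 for Tmco3/Dcun1d2 and 93.3 to 99.0 for Smc6/Gen1.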

How the data were processed

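CUT&Tag of H3K4me3 and H3K27me3 was done on 500000 cells per sample with tagmentation for 60 min and paired reads of 150 bp. Both come from the labels, whose protocol and the series' design text name different dissociation enzymes. Tools listed in the submitters' processing notes, without roles, are MACS3, Bowtie2 2.5.4, cutadapt 5.2, bedtools, deepTools, Picard and SAMtools 1.8, and the build is mm10. The authors deposited 1 peak list per library, so peaks were called per library. Each deposited line gives a score, a fold enrichment (a ratio within the library), a −log10 p and a −log10 q. The authors' lowest −log10 q was 1.30 for H3K4me3 and 1.00 for H3K27me3. All such values are as deposited and served only for ranking, filtering or describing peaks of 1 list. The lists hold no read totals, and background pileups were solved from fold and −log10 p with a tolerance of 0.01 in −log10 p. For H3K27me3 no depth could be had.

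Peaks on chromosomes 1 to 19 and X were merged where they overlapped, and covered bp were counted per region and library. Gene ends came from the RefSeq table of GRCm38.p6, and strand from its promoter table. Classes were compared over the 6 libraries with an exact two-sided sign-flip test. Breadth was fitted with limma 3.58.1 in R 4.3.3 (trended variance, pseudocount 200 bp, Benjamini-Hochberg adjustment over 15771 regions), and the script was tested on simulated data. Families were taken by gene symbol alone, leaving ribosomal protein kinases out of the ribosomal proteins. A few members may therefore not belong to the complex named. Regions named in the text are the textbook pairs, the 10 broadest in Ctrl, the 10 with the smallest p per contrast, the 10 longest control-only regions per treatment, those with most H3K27me3, those with the closest starts, and members of the families. The families' members, and the regions singled out beyond that, were chosen after their values were seen. The rankings left out regions in which a gene had a clone-style symbol, such as Gm or LOC with digits, or Rik. Members and lists were chosen with earlier results of these data known.

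The labels make the replicate number a batch, which may or may not pair the libraries. Deviations of same-numbered libraries from their group means correlated at −0.06 between SR2 and Ctrl, 0.03 between THC and Ctrl and 0.05 between THC and SR2. Leaving out the depth of reads, alternatives were other distances, merging, peak thresholds, pseudocounts and scalings, the replicate block and each library in turn.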

Additional observations from a re-analysis of the deposited data

How the results depend on the processing

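With the replicate block 0 shared regions passed for THC against Ctrl, SR2 against Ctrl and THC against SR2, as without it, so pairing changed no call. The count of shared regions that passed for THC against Ctrl was 28 with a pseudocount of 50 bp, 87 without centring and 1 when regions marked in a single library were also tested; for SR2 against Ctrl it was 18 and 17 with the first and second of these. Leaving out 1 library gave 0 to 211 for THC against Ctrl, 0 to 103 for THC against SR2 and 0 for SR2 against Ctrl. The other alternatives gave 0. Shared regions with no peak in THC numbered 25 when Ctrl had to cover at least 500 bp and 15 with equal numbers of peaks, against 8 and 5 for SR2 and, for THC against SR2, 4 and 8. Leaving out 1 library gave 60 to 122, 25 to 52 and 22 to 69. Regions marked only in the treatment numbered 1 for SR2 with the stricter peaks (−log10 q at or above 5) and 2 with equal numbers of peaks, and 1 in THC against SR2 with equal numbers; leaving out 1 library gave 0 to 2 for THC, 0 to 4 for SR2 and 0 to 5 for THC against SR2.

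The differences between shared and one-gene regions in share marked, median length and median rank kept their direction under 500 bp, 2 kb, midpoint, merging within 200 bp and stricter peaks. Each kept the unadjusted exact sign-flip p of 0.03125, the smallest that 6 libraries allow. Adjusted p-values were not computed for these alternatives. With 5 libraries there can be no sign-flip p below 0.0625, and leaving out 1 library gave 6.37 to 7.90 percentage points marked, a log2 ratio of 0.21 to 0.22 and 14.2 to 14.9 percentiles. For head-to-head regions against one-gene starts it gave 6.97 to 8.83 percentage points, 0.31 to 0.33 and 18.1 to 19.3. The difference in split regions, −0.137 percentage points, was 0.193 with stricter peaks. The difference in log2 ratio between SR2 and Ctrl, 0.0037, was −0.0078 within 2 kb, −0.0027 with stricter peaks and −0.0025 without Ctrl replicate 1, the lowest of −0.0025 to 0.0083; the cause was not tested. For THC against Ctrl that difference, 0.024, was 0.0088 within 2 kb, 0.0083 with stricter peaks, 0.040 by midpoint and 0.067 with equal numbers of peaks. The unadjusted counts for SR2 against Ctrl, 44 narrower and 7 wider, were 68 and 37 with only the 4 libraries compared and 46 and 21 with quantile normalization; for THC against Ctrl, 128 and 140 were 130 and 63, and 86 and 122. For depth, the lowest background pileup was 0.752 in THC replicate 1 and 1.52 in THC replicate 2; its part in breadth was not tested.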
